A study of Homo sapiens with 6 samples.

Results

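The 10 genes described here encode proteins that modify, fold or help to process procollagen. They are the prolyl 4-hydroxylase alpha subunits P4HA1, P4HA2 and P4HA3, the lysyl hydroxylases PLOD1, PLOD2 and PLOD3, the prolyl 3-hydroxylase P3H1 with its partner CRTAP, the chaperone FKBP10 and the secreted enhancer PCOLCE. They were taken by gene symbol, and all 10 were found among the 58735 genes of the count table. RNA was sequenced from UE7T-9, a line of human bone marrow mesenchymal stem cells. In the Control group, 3 libraries came from wild-type UE7T-9 cells. The 3 SRRM4 KO libraries came from UE7T-9 cells that had received a lentiviral CRISPR vector against SRRM4, a splicing regulator of neural microexons. Both groups were grown in the same medium, and no time or dose was varied. The SRRM4 KO line was raised from 1 cell by limiting dilution, so effects of the targeted gene, of the vector and its selection, and of the clone cannot be told apart. Whether the Control cells carried an empty vector is not given in the sources used here. The study lists alteration by lentivirus infection among possible reasons for the missing CD90 of its UE7T-9 control. The study notes that the SRRM4 protein was reduced but not completely lost. The comparison asks which RNAs differ between the knockout line and the Control cells.

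Fibrillar collagen is made as procollagen chains in the endoplasmic reticulum (ER). Hydroxylation of proline stabilizes the triple helix, and hydroxylation of lysine provides sites for sugars and for the cross-links that lysyl oxidases form later. Chaperones hold the chains while they fold. Outside the cell, proteinases remove the propeptides, and PCOLCE speeds the cleavage of the C-propeptide. The prolyl and lysyl hydroxylases need oxygen, iron, 2-oxoglutarate and ascorbate. Faults in P3H1, CRTAP and FKBP10 cause brittle bones, and faults in PLOD1 cause a form of Ehlers-Danlos syndrome.

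The libraries held between 21496117 and 23868323 counts, which were compared as CPM, counts scaled to a common library size with TMM factors. A count of 0 allows up to 3 counts, or 0.123 to 0.139 CPM, for counting error only. SRRM4 itself had 0 counts in all 6 libraries, so its RNA gives no check of the knockout. No pair of libraries of a group was as close as sampling noise, since the chi-square per degree of freedom was at least 5.06. Control replicate 1 differed most from the other Control libraries, at 23.0 and 23.5 against 5.63 between replicates 2 and 3. The labels do not say whether the libraries of a group are separate cultures, so the p-values measure the spread between these libraries only. Of the mesenchymal stem cell markers, NT5E was 342 CPM in Control and 490 in SRRM4 KO, ENG was 246 and 194, and THY1 was 144 and 26.7. Haematopoietic markers summed to between 17.95 and 21.8 CPM in every library. Most of that was CD14, at 16.8 and 15.9 CPM in Control and SRRM4 KO, while PTPRC stood at 0.031 and 0.059 CPM. Epithelial markers summed to between 97.4 and 119 CPM, nearly all of it keratin RNA, with EPCAM below 0.05 CPM in both group means. Endothelial markers summed to between 22.5 and 26.1 CPM in Control and between 4.43 and 5.86 in SRRM4 KO. This fall lay in KDR and TEK, while PECAM1 and CDH5 stood below 0.08 CPM in both groups. The part of these cell type markers in the results was not tested.

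In SRRM4 KO cells the 10 genes did not move as one group. P4HA1, P4HA2, PLOD1 and PLOD2 rose, with log2 fold changes of 0.41 to 0.59. PLOD3 and FKBP10 fell by 0.54 and 0.50 on the log2 scale, and PCOLCE fell 10-fold. P4HA3, P3H1 and CRTAP did not pass the test. A gene was said to rise or fall with an adjusted p under 0.05 (edgeR's quasi-likelihood test, Benjamini-Hochberg over the 15341 genes tested), and all 10 genes passed the filter on low counts. By this rule 4 of the 10 genes rose and 3 fell, where 20.7% of all tested genes rose and 20.9% fell. With a further threshold of a 2-fold change, 1 of the 10 was called lower (7.14% of all genes) and none higher (5.45% of all genes). DESeq2 gave the same counts of 1 and 0. The median log2 fold change was 0.090 over the 10 genes and -0.0052 over all tested genes. The groups did not overlap in 5 genes that were higher and 3 that were lower, where 25.9% of all genes were higher and 25.9% lower without overlap.

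**Figure D1:**
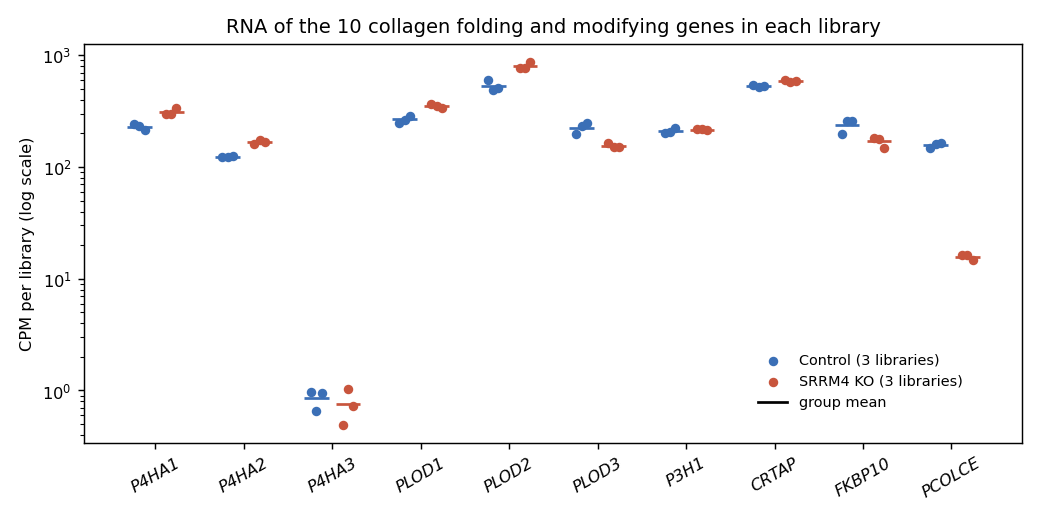
CPM of each of the 10 genes in each library, on a log scale, with Control in blue, SRRM4 KO in red and group means as bars. PCOLCE drops from a mean of 157 to 15.7 CPM, and P4HA3 stays near 1 CPM in both groups. PLOD2 has the highest CPM of the 10 in SRRM4 KO cells, before division by length.

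P4HA1, P4HA2 and PLOD2 are known targets of the hypoxia-inducible factor HIF-1, which binds DNA at the core letters ACGTG or GCGTG. Sequence before the RefSeq start is shown for PLOD2, which held the most matches of the 8 genes searched. It is also shown for P3H1, which held a match and did not pass the test. Capitals mark the core letters on either strand, so that CACGT and CACGC are the same motifs on the other strand. The sequences come from RefSeq (GRCh38.p14), run 5′ to 3′ on the strand of the gene, and hold no base that GENCODE annotates as exon on that strand. That of PLOD2 lies on the minus strand at chr3:146161185-146161434, the 250 bases before its RefSeq start. These bases lie inside the span that GENCODE gives the PLOD2 gene, which extends further upstream to 146163653. That of P3H1 lies on the minus strand at chr1:42767085-42767278 and was cut at the first exonic base.
PLOD2: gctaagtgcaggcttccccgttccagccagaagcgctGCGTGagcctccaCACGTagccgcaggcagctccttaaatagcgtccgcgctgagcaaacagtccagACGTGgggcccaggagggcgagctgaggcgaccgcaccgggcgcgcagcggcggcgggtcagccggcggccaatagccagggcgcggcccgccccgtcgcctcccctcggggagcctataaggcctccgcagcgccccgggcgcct
P3H1: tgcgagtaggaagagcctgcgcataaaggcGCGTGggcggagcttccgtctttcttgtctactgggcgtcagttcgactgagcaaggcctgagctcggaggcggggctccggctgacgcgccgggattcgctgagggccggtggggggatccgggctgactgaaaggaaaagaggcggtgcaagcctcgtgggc

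The matches of PLOD2 began 213, 200 and 146 bases before the RefSeq start, and that of P3H1 began 220 bases before it. RefSeq sequences were found for 8 of the 10 genes, the others being P4HA3 and FKBP10. In the 250 bases before the start 6 of these 8 held the motif, PLOD1 and PCOLCE with 2 matches each and P4HA1 and CRTAP with 1 each, while P4HA2 and PLOD3 held none. For P4HA2 and PLOD3 GENCODE annotates all 250 bases as exon, so no bases outside exons were searched for them. The match of P4HA1, at 86 bases, and those of PCOLCE, at 84 and 36 bases, lay in bases that GENCODE places in an untranslated exon, and the match of PLOD1 at 25 bases ran into such an exon. The motif stood in 43.1% of the 34788 different sequences of this length in the table. Among the 10 genes it occurred in some that rose, in some that did not pass the test and in the gene that fell most. A match describes the letters only.

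PCOLCE showed the largest difference. It encodes the procollagen C-endopeptidase enhancer, a secreted glycoprotein that binds the C-propeptide of fibrillar procollagens. Its position is chromosome 7, plus strand, bases 100602177 to 100608175 of GRCh38 (ENSG00000106333). It had 3191, 3460 and 3667 counts in Control replicates 1 to 3 and 360, 396 and 324 in SRRM4 KO replicates 1 to 3. All 3 knockout libraries were far below the lowest Control library. The level fell from 157 ± 9.0 to 15.7 ± 0.859 CPM (SD, n = 3 each). PCOLCE fell by 3.32 on the log2 scale (SE 0.098, edgeR adjusted p = 3.13e-12). Of the 2287 tested genes with a mean of at least 100 CPM in Control, 9 had a lower fitted log2 fold change. Among all 15341 tested genes, 192 did. The median tested gene of chromosome 7 stood at -0.25, and with that shift removed PCOLCE fell by 3.07 on the log2 scale. An antisense gene, PCOLCE-AS1, shares 585 of the 3532 exonic bases (16.6%). The libraries are not stranded, but that gene had at most 10 counts in a library.

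The proteinases that PCOLCE assists or that act beside it were also measured. BMP1, the main procollagen C-proteinase, measured 341 ± 30.4 CPM in Control and 267 ± 28.8 CPM in SRRM4 KO (SD, n = 3), and its log2 fold change was -0.36 (edgeR adjusted p = 0.00655). Per kb of the gene lengths given with the counts (3532 and 7471 bases), PCOLCE and BMP1 were at nearly the same level in Control. Their log2 ratio was -0.034 ± 0.048 (SD, n = 3), a value that depends on these lengths. In SRRM4 KO cells that log2 ratio was -3.00 ± 0.081 (SD, n = 3), without overlap (exact two-sided permutation test, p = 0.10, the smallest that 3 against 3 allows). ADAMTS2, which removes the N-propeptide, went from 296 to 75.6 CPM, a log2 fold change of -1.97 (edgeR adjusted p = 1.02e-10). TLL2, a relative of BMP1, went from 2.38 to 0.681 CPM. PCOLCE2, the related enhancer, was at 5.69 ± 0.346 and 4.48 ± 0.959 CPM (SD, n = 3), and its log2 fold change of -0.34 did not pass the test (edgeR adjusted p = 0.216). In this list of 7 cleavage genes other than PCOLCE, 3 fell, 0 rose and 4 did not pass, with a median log2 fold change of -0.34.

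The prolyl 4-hydroxylase alpha subunits carry the catalytic site of the enzyme that makes 4-hydroxyproline, as tetramers with P4HB. P4HA1 (ENSG00000122884, minus strand of chromosome 10, 73007217 to 73096974) had 242, 233 and 213 CPM in the Control libraries and 301, 300 and 337 CPM in the SRRM4 KO libraries. Each knockout library was above every Control library. Its log2 fold change was 0.45 (SE 0.082, edgeR adjusted p = 0.000433). P4HA2 (ENSG00000072682, minus strand of chromosome 5, 132191838 to 132295315) had 123, 122 and 127 CPM in Control and 162, 175 and 168 CPM in SRRM4 KO, also without overlap. Its log2 fold change was 0.44 (SE 0.079, edgeR adjusted p = 0.000336), nearly that of P4HA1. P4HA3 (ENSG00000149380, minus strand of chromosome 11, 74235801 to 74311657) was close to the detection limit. Its Control libraries held 21, 14 and 21 counts, against 11, 25 and 16 in the SRRM4 KO libraries. The groups overlapped, and the log2 fold change of -0.18 had a 95% interval from -1.23 to 0.86, so that no difference was detectable at this depth. P4HA2 shares 6.45% of its exonic bases with P4HA2-AS1, which had at most 2 counts in a library. P4HA3 shares 5.09% with P4HA3-AS1 and PPME1 on the other strand. PPME1 had 1814, 1861 and 1838 counts in Control and 2928, 2961 and 2829 in SRRM4 KO, far more than P4HA3, and its part in the counts of P4HA3 was not tested.

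Within the alpha subunits P4HA1 made up 84.2%, 83.8% and 82.0% of P4HA counts per kb in Control and 83.5%, 82.3% and 84.5% in SRRM4 KO. The means of 83.3% ± 1.17 and 83.4% ± 1.08 (SD, n = 3) differed by less than the spread between libraries (exact two-sided permutation test, p = 0.80). P4HA2 held nearly all of the rest, and P4HA3 held between 0.106% and 0.279% in any library. These shares rest on gene lengths of 3093 bases for P4HA1 and 8502 for P4HA2. Before division by length, the mean levels of P4HA1 and P4HA2 were 229 and 124 CPM in Control. In SRRM4 KO they were 313 and 169 CPM. The summed level of the alpha subunits went from 88.9 ± 4.48 to 121 ± 6.68 CPM per kb (SD, n = 3), without overlap. P4HB, the beta subunit and a protein disulfide isomerase, measured 881 ± 50.9 CPM in Control and 1679 ± 55.6 CPM in SRRM4 KO (SD, n = 3), and its log2 fold change was 0.93 (edgeR adjusted p = 3.64e-08). The 103 tested genes within 5 Mb of P4HB on chromosome 17 had a median log2 fold change of 0.66, and the part of this shift in the value of P4HB was not tested.

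**Figure D2:**
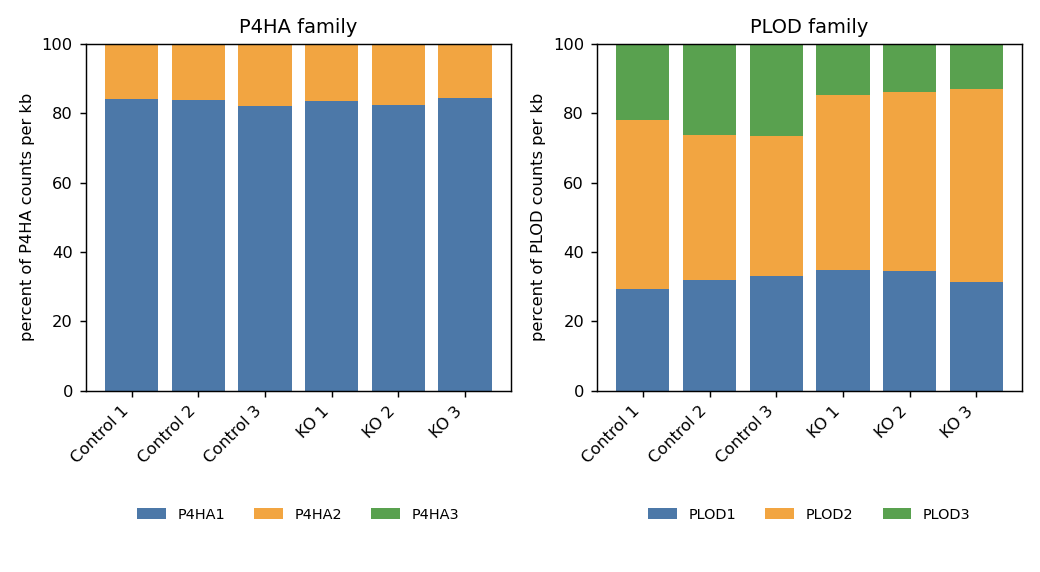
Share of each gene in the counts per kb of its family, as stacked bars for each of the 6 libraries. The P4HA bars are alike in both groups, while in the PLOD bars the PLOD3 segment shrinks from 21.8% to 26.6% in Control to 13.0% to 14.6% in SRRM4 KO.

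The lysyl hydroxylases split. PLOD2, which modifies lysines of the telopeptides, where cross-links form, had the highest log2 fold change of the 10 genes, although P4HA2 (0.50) passed it (0.47) when each gene was set against its own chromosome. It lies on the minus strand of chromosome 3 (ENSG00000152952, 146069440 to 146163653) and had 602, 494 and 506 CPM in Control and 768, 768 and 870 CPM in SRRM4 KO. Control replicate 1 was nearest to the knockout libraries but below all of them. The log2 fold change was 0.59 (SE 0.086, edgeR adjusted p = 6e-05), and it was 0.68 without Control replicate 1. PLOD1, which modifies lysines of the triple helix, lies on the plus strand of chromosome 1 (ENSG00000083444, 11934205 to 11975538). It had 249, 265 and 288 CPM in Control and 369, 355 and 339 CPM in SRRM4 KO. The groups did not overlap, and its log2 fold change was 0.41 (SE 0.079, edgeR adjusted p = 0.000764).

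PLOD3, which also carries the sugar transferase activities that act on hydroxylysine, moved the other way. It lies on the minus strand of chromosome 7 (ENSG00000106397, 101205977 to 101218420), the chromosome of PCOLCE, and had 199, 232 and 247 CPM in Control against 165, 152 and 150 CPM in SRRM4 KO. All knockout libraries were below the lowest Control library. PLOD3 fell by 0.54 on the log2 scale (SE 0.091, edgeR adjusted p = 0.000231). After removal of the median shift of chromosome 7 it fell by 0.28 on that scale (edgeR adjusted p = 0.0239). PLOD3 shares 429 exonic bases (7.57%) with ZNHIT1 on the other strand. ZNHIT1 had 845, 803 and 1044 counts in Control and 646, 682 and 589 in SRRM4 KO, and its part in the value of PLOD3 was not tested in these non-stranded libraries.

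Within the PLOD family, PLOD2 held 49.0%, 41.6% and 40.4% of PLOD counts per kb in Control and 50.5%, 51.8% and 55.8% in SRRM4 KO. The highest Control share lay just below the lowest knockout share. The mean share of PLOD2 went from 43.7% ± 4.65 to 52.7% ± 2.76 (SD, n = 3), and that of PLOD3 went from 24.9% ± 2.67 to 13.8% ± 0.825 (SD, n = 3). PLOD1 held 31.4% ± 2.01 and 33.5% ± 1.98 (SD, n = 3), and its libraries overlapped. The exact two-sided permutation test gave p = 0.10 for PLOD2 and for PLOD3, the smallest possible value, and p = 0.30 for PLOD1. The whole family went from 160 ± 4.36 to 199 ± 5.03 CPM per kb (SD, n = 3).

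P3H1 and CRTAP form an ER complex with the cyclophilin PPIB, which adds 3-hydroxyproline to collagen chains and helps them to fold. P3H1 (ENSG00000117385, minus strand of chromosome 1, 42746335 to 42767084) had 202, 207 and 223 CPM in Control and 217, 220 and 214 CPM in SRRM4 KO. The groups overlapped, and the log2 fold change of 0.041 had a 95% interval from -0.12 to 0.20. Its sign turned when each gene was set against its own chromosome, at -0.0015. CRTAP (ENSG00000170275, plus strand of chromosome 3, 33113979 to 33147773) had 545, 525 and 529 CPM in Control and 597, 575 and 589 CPM in SRRM4 KO. These groups did not overlap, but the log2 fold change of 0.14 (95% interval -0.0035 to 0.28) did not pass the test (edgeR adjusted p = 0.111). Without Control replicate 1 it was 0.16 and passed (edgeR adjusted p = 0.0223), and set against the median of its chromosome it was 0.025 and did not (edgeR adjusted p = 0.813). The log2 ratio of P3H1 to CRTAP per kb was -1.35 ± 0.094 and -1.45 ± 0.042 (SD, n = 3; exact two-sided permutation test, p = 0.20). PPIB measured 107 ± 19.2 CPM in Control and 153 ± 9.60 CPM in SRRM4 KO (SD, n = 3), and its log2 fold change was 0.52 (edgeR adjusted p = 0.00209).

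FKBP10 encodes FKBP65, a prolyl isomerase of the ER that binds procollagen and is needed for telopeptide lysine hydroxylation, the step that PLOD2 carries out. It lies on the plus strand of chromosome 17 (ENSG00000141756, 41812680 to 41823217). Its levels were 198, 260 and 259 CPM in Control and 182, 177 and 149 CPM in SRRM4 KO. Control replicate 1 was well below replicates 2 and 3 and only slightly above SRRM4 KO replicate 1. FKBP10 fell by 0.50 on the log2 scale (SE 0.11, edgeR adjusted p = 0.00201), and without Control replicate 1 it fell by 0.62 on that scale. FKBP10 and PLOD2, which act at the same step, moved in opposite directions. Against the median of chromosome 17 (0.21), FKBP10 fell by 0.70 on the log2 scale, although the genes within 5 Mb had a median of -0.014.

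**Figure D3:**
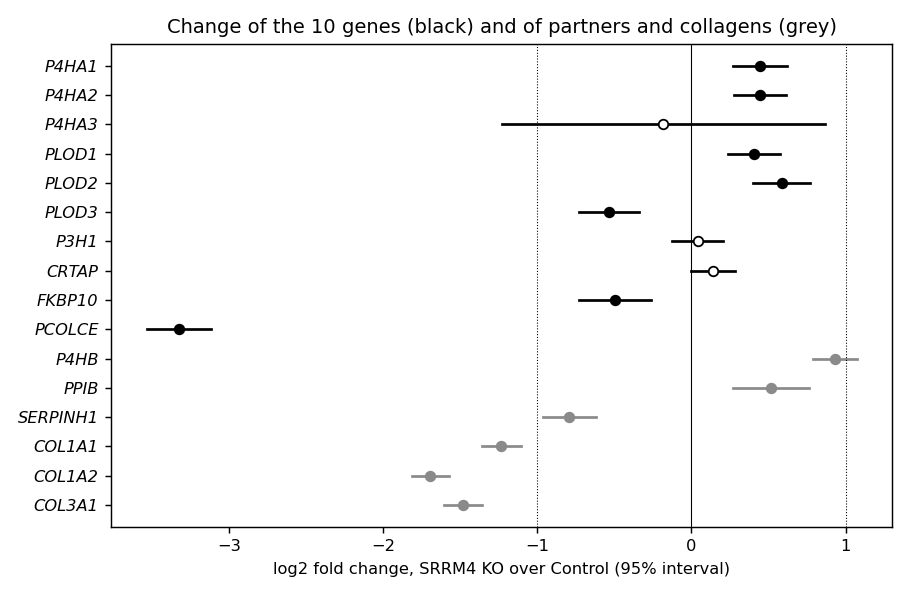
Log2 fold change of SRRM4 KO over Control with its 95% interval for the 10 genes (black) and for P4HB, PPIB, SERPINH1 and 3 fibrillar collagens (grey). Filled points have an adjusted p under 0.05 and dotted lines mark a 2-fold change. Of the black points PCOLCE alone lies beyond a dotted line, and the collagens lie between -1.70 and -1.23.

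Levels of different genes are compared here per kb of gene length. That length counts all annotated exonic bases of a gene, not those of a single transcript, so the order also depends on the annotation. In Control the order in CPM per kb was CRTAP (79.6 ± 1.66), P4HA1 (74.2 ± 4.74), PLOD2 (69.9 ± 7.73), FKBP10 (55.9 ± 8.32), PLOD1 (50.3 ± 3.68), PCOLCE (44.5 ± 2.55), PLOD3 (39.9 ± 4.32), P3H1 (31.2 ± 1.63), P4HA2 (14.6 ± 0.277) and P4HA3 (0.213 ± 0.044; SD, n = 3 each). The libraries of P4HA1 and PLOD2 overlapped, as did those of FKBP10 and PLOD1 and those of PCOLCE and PLOD3, so the order within these pairs is not settled. Beyond neighbours, the libraries of PLOD2 also overlapped those of CRTAP, and those of FKBP10 overlapped those of PCOLCE. In SRRM4 KO cells PLOD2 (105 ± 7.73) and P4HA1 (101 ± 6.68) led with overlapping libraries, ahead of CRTAP (87.7 ± 1.63) and PLOD1 (66.6 ± 2.81). FKBP10 (39.7 ± 4.14), P3H1 (32.1 ± 0.472), PLOD3 (27.5 ± 1.42) and P4HA2 (19.8 ± 0.749) followed. PCOLCE (4.45 ± 0.243) dropped to the ninth place, above P4HA3 (0.187 ± 0.067) alone.

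The fibrillar collagens, the main substrates of these proteins, had another course. COL1A1 went from 27880 to 11870 CPM, COL1A2 from 12200 to 3766 CPM and COL3A1 from 5095 to 1825 CPM, and COL5A1 had a log2 fold change of -1.05. Of the 10 fibrillar collagen chains tested 8 fell and 0 rose, with a median log2 fold change of -1.14. The summed level of COL1A1, COL1A2 and COL3A1 went from 4681 ± 228 to 1814 ± 119 CPM per kb (SD, n = 3), while that of the 10 genes went from 460 ± 7.03 to 484 ± 7.59 (SD, n = 3). The log2 ratio of the 10 genes to these collagens was -3.29, -3.36 and -3.38 in Control and -1.98, -1.96 and -1.77 in SRRM4 KO. The groups were well apart, and the difference of 1.44 is a 2.71-fold higher ratio (exact two-sided permutation test, p = 0.10, the smallest possible). With each of the 10 genes weighted equally the difference was 1.12. These ratios share the same collagens as denominator, so they are not independent of each other. The fall of the collagens alone gives a gene with the same CPM in both groups a gain of 1.37 in log2 units, near the 1.44 of the 10 genes together. For 9 of the 10 genes the ratio was higher in every knockout library than in any Control library, as it was for 85.5% of all tested genes, so this count is not particular to them. Of the genes that passed the test, PLOD3 (0.84) and FKBP10 (0.88) gained less than a gene of constant CPM would, and PLOD2 (1.96), P4HA1 (1.82), P4HA2 (1.81) and PLOD1 (1.77) gained more. Which genes gained more or less follows from their fold changes given above and is no further result. The gains of P4HA3 (1.14), P3H1 (1.41) and CRTAP (1.51), which did not pass, are given as values only. The ratio was lower without overlap for 2.91% of all tested genes, PCOLCE among them. Its ratio went from -6.72 ± 0.016 to -8.67 ± 0.029 (SD, n = 3). Its RNA was lower relative to theirs in each knockout library.

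**Figure D4:**
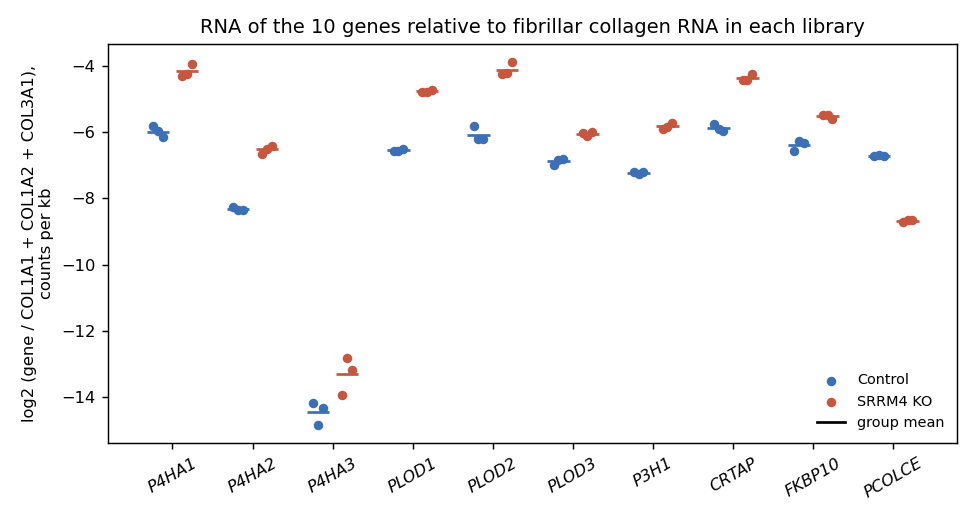
Log2 ratio of each of the 10 genes to the sum of COL1A1, COL1A2 and COL3A1, in counts per kb, for each library, with Control in blue, SRRM4 KO in red and group means as bars. A gene of constant CPM would move up by 1.37 because the collagens fell, and 85.5% of all tested genes have a higher ratio, as 9 of the 10 do. PCOLCE goes down from -6.72 to -8.67.

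Other ER proteins that act on collagen were mixed. Of 13 such partners 4 rose, 6 fell and 3 did not pass the test, with a median log2 fold change of 0.082. SERPINH1, the collagen-specific chaperone HSP47, measured 847 ± 87.3 CPM in Control and 489 ± 11.8 CPM in SRRM4 KO (SD, n = 3), and its log2 fold change was -0.79 (edgeR adjusted p = 1.38e-06). P3H4, which works with lysyl hydroxylation and is the neighbour of FKBP10 on chromosome 17, rose by 0.45 on the log2 scale, while P3H2 rose by 0.32. Past a 2-fold change were FKBP9 (log2 fold change -1.09) and FKBP11 (-1.08), prolyl isomerases of the ER that belong to the family of FKBP10. FKBP7 (-0.43) and FKBP14 (-0.29) also fell. FKBP9 and FKBP14 lie on chromosome 7, whose tested genes had a median of -0.25, close to the value of FKBP14. The sugar transferase COLGALT2 fell (-0.82), and COLGALT1, at 376 and 398 CPM, did not pass the test.

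Of 11 genes of procollagen export from the ER 2 rose, 2 fell and 7 did not pass, with a median log2 fold change of -0.030, and the log2 fold changes ran from -0.34 to 0.32. KDELR2, the most abundant of them, stood at 445 ± 26.1 and 436 ± 13.2 CPM (SD, n = 3). Of 22 genes of general ER folding and the unfolded protein response 10 rose, 4 fell and 8 did not pass, with a median log2 fold change of 0.21 and none past a 2-fold change. The lectin chaperone CALR, which had the highest CPM of the list in SRRM4 KO, went from 1112 ± 106 to 1844 ± 84.8 CPM (SD, n = 3). CANX, which was higher than CALR in Control, stood at 1281 and 1387 CPM and did not pass. HSP90B1 rose by 0.55 on the log2 scale, while HSPA5, the main ER chaperone, had a log2 fold change of 0.053 and did not pass. The 4 that fell were ATF4 (-0.72), HERPUD1 (-0.65), DDIT3 (-0.52) and XBP1 (-0.37).

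Of 21 tested HIF targets outside the 10 genes 10 rose, 4 fell and 7 did not pass, with a median log2 fold change of 0.20. The glucose transporter SLC2A1 (1.23) and the glycolytic regulator PFKFB4 (1.15) were past a 2-fold change, and ENO1, the most abundant, went from 1420 ± 150 to 2629 ± 85.9 CPM (SD, n = 3). LDHA (0.92), PGK1 (0.99) and BNIP3 (0.94) rose by nearly as much. VEGFA, at 108 ± 4.74 and 102 ± 10.2 CPM (SD, n = 3), did not pass, and INSIG2 (-0.79) and CA12 (-0.72) fell. Whether these genes and P4HA1, P4HA2 and PLOD2 share a cause was not tested. ALDOA, at 1.17 and 1.35 CPM, is very low in the table for a glycolytic enzyme, and how the counting treated its reads is not given in the sources used here.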

How the data were processed

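Total RNA was sequenced as non-stranded mRNA libraries. Per the labels, the submitters' processing notes name HISAT2 2.0.5, featureCounts 1.5.0-p3 and DESeq2, and their parameters are not given in the sources used here. The file that the authors deposited gives read counts for each gene, not normalized, with gene lengths. All 58735 gene IDs and their coordinates matched GENCODE release 29 (GRCh38), and lengths of the 10 genes equal their exonic bases.

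Libraries were grouped by title, 3 per group. Counts were tested with edgeR 4.0.16 in R 4.3.3 with TMM scaling, filterByExpr and a prior count of 0.125. The quasi-likelihood F test was used, with p-values adjusted after Benjamini and Hochberg across 15341 genes. The SE is the log2 fold change divided by the root of F, and the 95% interval uses its t quantile. Shares and ratios were compared by exact permutation tests. Alternatives were other scalings and filters, DESeq2 1.42.0, a replicate block, libraries left out, a threshold test, protein-coding genes only, and each gene set against its chromosome's median. The 10 genes and the lists were chosen with earlier results of these data known. Of each list, the most abundant gene and at most 4 called genes per direction were to be named. Other list genes and the cell type markers were named after their values were seen.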

Additional observations from a re-analysis of the deposited data

How the results depend on the processing

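The 7 of the 10 genes that passed the test kept their direction and passed under all 14 alternatives, and where recounted, the counts of 3 lower and 4 higher changed only without Control replicate 1, where CRTAP made 5 higher. PCOLCE ranged from -3.37 to -3.07 on the log2 scale. P4HA3 never passed, and it ranged from -0.49 to 0.037 with each library left out, above 0 without SRRM4 KO replicate 1. P3H1 never passed and stood at -0.0015 when set against its chromosome. The difference in the share of P4HA1 ran from -0.538 to 0.684 percentage points with each library left out, and was below 0 without Control replicate 3 or SRRM4 KO replicate 3. The log2 gain of the 10 genes over the collagens was 1.12 with equal weights. A test against the 2-fold threshold called 577 genes lower and 360 higher, where the main rule called 1096 and 836. That test is not among the 14 alternatives, and it called 1 of the 10 genes lower and 0 higher. Deviations of same-numbered libraries from their group means had correlations of -0.0546, 0.0831 and -0.0529. Those of differently numbered libraries ran from -0.114 to 0.158. With 3 libraries per group these values cannot decide whether the library numbers mark pairs. With the replicate block 1093 genes were lower and 842 higher. Depth limits the values of P4HA3 only among the 10 genes.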

Other observations

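Other enzymes of the same chemistry, and the uptake of their cofactor, were measured beside the collagen hydroxylases. Of 7 tested genes 1 rose, 2 fell and 4 did not pass the test, with a median log2 fold change of 0.046. SLC23A2, the ascorbate transporter of most cells, was the most abundant in Control and measured 126 ± 3.13 CPM in Control and 87.1 ± 2.26 CPM in SRRM4 KO (SD, n = 3), and its log2 fold change was -0.53 (edgeR adjusted p = 8.66e-05). JMJD6, a lysyl hydroxylase that acts on splicing proteins, was at 33.5 ± 6.21 and 61.1 ± 4.07 CPM (SD, n = 3). OGFOD1, a prolyl hydroxylase of a ribosomal protein, fell by 0.27 on the log2 scale. EGLN1 and P4HTM, which hydroxylate HIF, and HIF1AN did not pass, at log2 fold changes of 0.14, 0.046 and 0.080.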
